A study of Mus musculus with 6 samples.

Results

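*Prr32*, *Fer1l6*, *Cpne9* and *1110002E22Rik* are 4 protein-coding genes of which little is known in fat, among the 36144 gene symbols measured in inguinal white adipose tissue (iWAT). They were chosen by name because they rose strongly in mice whose adipocytes lack *Cebpa*, so their fold changes between the genotypes are given as a description, with no test. Whole iWAT of 3 Cebpa_fl/fl and 3 Cebpa_ASKO mice was compared by RNA-seq, with 1 library from each mouse and both inguinal depots pooled after removal of the lymph nodes. All mice were 10-week-old females on a C57BL6/J background, fed a chow diet ad libitum, and every mouse carried floxed *Cebpa* alleles. Cebpa_ASKO mice (Cebpa_fl/fl; AdipoQ-Cre +) also carried the AdipoQ-Cre transgene, which their littermate controls (Cebpa_fl/fl; AdipoQ-Cre −) lacked. The *Adipoq* promoter drives Cre late in adipocyte differentiation, so *Cebpa* is taken to be kept in the other cells of the tissue. By the paper's interpretation it is also kept in adipocyte precursors early in differentiation.

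C/EBPα is a transcription factor that works with PPARγ to switch on the genes of the mature adipocyte. *Fer1l6* encodes a ferlin and *Cpne9* a copine. Both families carry C2 domains, which in many proteins bind membrane phospholipids when calcium rises. Ferlins are known for the fusion of vesicles and the repair of the plasma membrane, best studied for dysferlin in skeletal muscle and otoferlin in the hair cells of the inner ear, and copines are soluble proteins that move to membranes in response to calcium. *Prr32* is named only for a proline-rich protein, and *1110002E22Rik* bears the name of the cDNA clone in which it was found.

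The libraries held between 46237121 and 49477671 estimated counts in Cebpa_fl/fl and between 33141769 and 42243013 in Cebpa_ASKO. Levels between libraries are given as CPM, counts scaled to the size of the library, normalized by the TMM method. *Cebpa*, the targeted gene, was measured first, at 446, 463 and 496 CPM in Cebpa_fl/fl mice against 37.5, 45.6 and 37.1 CPM after Cre deletion. The mean of Cebpa_ASKO was 8.55% of the mean of Cebpa_fl/fl, and each library matched its label. Adipocyte markers were present in every library, with sums of 37705 to 44875 CPM in controls against 11700 to 14267 CPM in Cebpa_ASKO. In the edgeR test given below, at an adjusted p below 0.05, 10 of the 16 were called lower, beside 3.83% of all genes tested. From RNA of whole tissue alone, fewer cells of a type and less RNA per cell cannot be told apart. From histology shown for male mice, the paper reports that Cebpa_ASKO iWAT held fewer adipocytes, of larger mean size.

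The bases just before the start of transcription are shown because C/EBPα acts by binding DNA, and 3 of the 4 genes had an entry in the RefSeq promoter table (GRCm38.p6), *Fer1l6* being the exception. Each line gives the 250 bases before the RefSeq start, 5′ to 3′ on the plus strand, on which all of them are transcribed. The windows are chrX:45090654-45090903 for *Prr32*, chr6:113282057-113282306 for *Cpne9* and chr3:138061992-138062241 for *1110002E22Rik*. Capitals mark matches on either strand to TTGCNNAA, the pattern of a C/EBP site, to CCAAT, and to TATAAA, the TATA box.
Prr32: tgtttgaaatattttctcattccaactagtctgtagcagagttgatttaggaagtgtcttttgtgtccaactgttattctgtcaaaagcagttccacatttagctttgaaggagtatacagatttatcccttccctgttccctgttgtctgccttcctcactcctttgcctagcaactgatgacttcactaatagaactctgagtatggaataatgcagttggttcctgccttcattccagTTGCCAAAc
Cpne9: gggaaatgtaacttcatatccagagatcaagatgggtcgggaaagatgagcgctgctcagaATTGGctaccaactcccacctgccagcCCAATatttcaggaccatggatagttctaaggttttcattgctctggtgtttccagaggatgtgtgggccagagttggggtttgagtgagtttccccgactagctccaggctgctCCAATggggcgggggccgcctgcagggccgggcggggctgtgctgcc
1110002E22Rik: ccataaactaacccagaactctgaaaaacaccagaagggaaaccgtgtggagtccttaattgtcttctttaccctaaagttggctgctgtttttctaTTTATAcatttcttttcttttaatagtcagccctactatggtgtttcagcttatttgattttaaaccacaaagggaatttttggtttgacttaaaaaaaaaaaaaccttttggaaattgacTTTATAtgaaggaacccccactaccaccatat
*Prr32* had 1 match to TTGCNNAA, which read TTGCCAAA and lay 9 to 2 bases before the start. Of 32851 promoter windows of the same length, 9.56% held this pattern. *Cpne9* had 3 CCAAT matches, starting 189, 162 and 47 bases before the start, the farthest of them on the minus strand, and 33.8% of windows held at least 1. *1110002E22Rik* had TATAAA on the minus strand 153 and 32 bases before the start, and 12.4% of windows held it on either strand. The pattern CANNTG of an E-box, left in lower case, occurred 4 times for *Prr32*, where 1 match overlapped TTGCNNAA, and 1 time for *Cpne9*, and 66.2% of windows held it. The *Cpne9* window held 56.4% G and C, the *Prr32* window 40.4% and the *1110002E22Rik* window 34.4%, beside a median of 52.4% over all windows. The RefSeq start of *1110002E22Rik* lies 2810 bases upstream of the start in GENCODE, whose transcripts were counted, so the 2 annotations place its promoter differently. A match is a string of letters, and binding was not measured.

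For all 4 genes the lowest Cebpa_ASKO library stood above the highest Cebpa_fl/fl library, a separation that follows from how they were chosen. Among the 16080 genes tested, 12.9% separated the genotypes in this direction and 26.1% in either direction. In edgeR's quasi-likelihood test, with genes called where the adjusted p fell under 0.05, 840 genes or 5.22% were called, of which 224 or 1.39% were higher and 616 or 3.83% lower. At an unadjusted p below 0.05 in the same test there were 3178 of these 16080 genes. DESeq2, an alternative test, gave 17152 genes an adjusted p and called 1817 of them, 677 higher and 1140 lower. Ranked by log2 fold change from the highest rise, *Fer1l6* stood at 6, *Cpne9* at 10, *Prr32* at 12 and *1110002E22Rik* at 74. Of the first 15 genes in that ranking, 8 were predicted genes with Gm symbols and 3 were these.

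**Figure D1:**
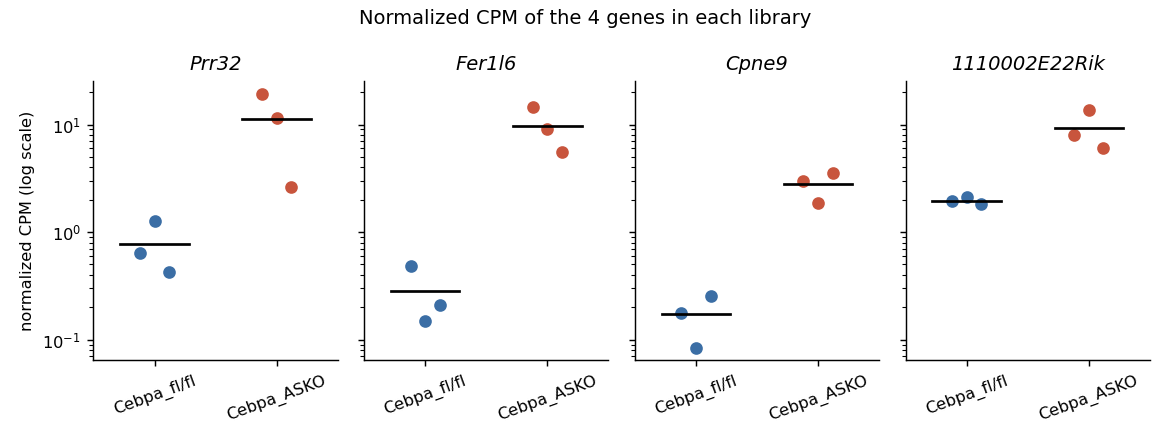
Normalized CPM of each gene in each library on a shared log axis, with Cebpa_fl/fl in blue, Cebpa_ASKO in red, 1 point per mouse in the order of replicate number, and a bar at the mean of each genotype. The red points of *Prr32* spread over a 7.32-fold range and those of *Cpne9* over 1.87-fold, and within each panel no red point falls as low as a blue one.

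*Fer1l6* (ENSMUSG00000037106.8, chr15:58510048-58665092, plus strand) is a ferlin whose own function is little described. It had 0.488, 0.148 and 0.211 CPM in Cebpa_fl/fl, from 22, 7 and 10 counts, and 14.4, 9.10 and 5.54 CPM in Cebpa_ASKO, from 456, 358 and 248 counts. It was close to the limit of detection in control iWAT and plain in every Cebpa_ASKO mouse, where even the lowest library was 11.4-fold above the highest control. The means were 0.282 ± 0.181 and 9.68 ± 4.46 CPM (SD, n = 3 each), a ratio of 34.3 and a log2 fold change of 5.09 (SE 0.57).

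Most of these counts were not assigned to the transcript annotated as encoding the ferlin. *Fer1l6* has 3 annotated transcripts. Fer1l6-203, of 41 exons and 5714 bases, is the protein-coding one. Fer1l6-201 is a retained-intron transcript of 2776 bases in 3 exons that begins after 89.3% of the length of the gene, and 2159 of its bases lie past the end of the coding transcript. It held 75.3% to 81.5% of the gene's counts in the 3 Cebpa_ASKO libraries. Fer1l6-202, a processed transcript of 714 bases of which 660 lie in the coding sequence, held 12.7% to 14.3%. The coding transcript was left with 5.61% to 10.4%, or 25.6 to 26.8 estimated counts a library, while the CPM of the gene as a whole ranged 2.60-fold over these mice. In the controls the coding transcript had 3.54 counts over all 3 libraries, against 78.1 in Cebpa_ASKO, with means of 0.0254 ± 0.0238 and 0.688 ± 0.116 CPM. Thus the gene was higher in Cebpa_ASKO in the counts assigned to its coding transcript and in the rest. The assigned coding counts were a small part of the total in both genotypes (9.43% ± 11.6 and 7.83% ± 2.41). In controls that share rests on the 3.54 counts and ran from 0% to 22.4%. How much of the RNA encodes the ferlin was not tested. Each of the 3 transcripts was listed with a copy of the same length and counts under an identifier outside the annotation used, and each pair was summed. The split between transcripts that share exons is an estimate, not a count of reads that fit only 1 of them.

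*Cpne9* (ENSMUSG00000030270.11, chr6:113282307-113305627, plus strand) is a member of the copine family of calcium-dependent phospholipid-binding proteins. It had 0.177, 0.0844 and 0.253 CPM in Cebpa_fl/fl, from 8, 4 and 12 counts. The Cebpa_ASKO libraries had 2.97, 1.88 and 3.51 CPM, from 94, 74 and 157 counts. The 3 Cebpa_ASKO mice lay closer together than for any of the other genes, and the lowest of them was 7.43-fold above the highest control. The means were 0.172 ± 0.0845 and 2.79 ± 0.829 CPM, a ratio of 16.2 and a log2 fold change of 4.0 (SE 0.46).

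The transcripts of *Cpne9* differed in their part of this difference. Cpne9-201, the protein-coding transcript of 21 exons, held 70.4% ± 19.0 of the gene's counts in Cebpa_fl/fl and 27.3% ± 21.5 in Cebpa_ASKO. In Cebpa_ASKO its share was 14.2%, 52.1% and 15.4%, so replicate 2 stood apart and reached into the range of the controls, whose lowest share was 50.0%. Cpne9-204, annotated as a target of nonsense-mediated decay, had 0 estimated counts in all 3 controls and 65.0, 11.8 and 67.2 in Cebpa_ASKO. Its mean of 1.28 ± 0.896 CPM was 59.8-fold above a floor of 3 counts over the control group, or 0.0215 CPM. The 0 in controls is an estimated split of only 8, 4 and 12 gene counts between transcripts that share most of their bases. That fold is therefore not a lower bound. Cpne9-204 also has 21 exons, holds all 1659 bases of the coding sequence of Cpne9-201 and shares 2029 bases with that transcript, while 86 bases are found only in Cpne9-204 and 748 only in Cpne9-201. Cpne9-206, a retained-intron transcript of 13 exons, had 2.97 counts over the control group and 9.54, 15.4 and 48.1 in Cebpa_ASKO. The coding transcript alone had means of 0.126 ± 0.0741 and 0.647 ± 0.292 CPM, a ratio of 5.12, and the other transcripts together had 0.0431 ± 0.0214 and 2.14 ± 1.09 CPM, a ratio of 49.6. These other transcripts had only 6.08 counts in all controls together, which limits the precision of the second ratio.

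**Figure D2:**
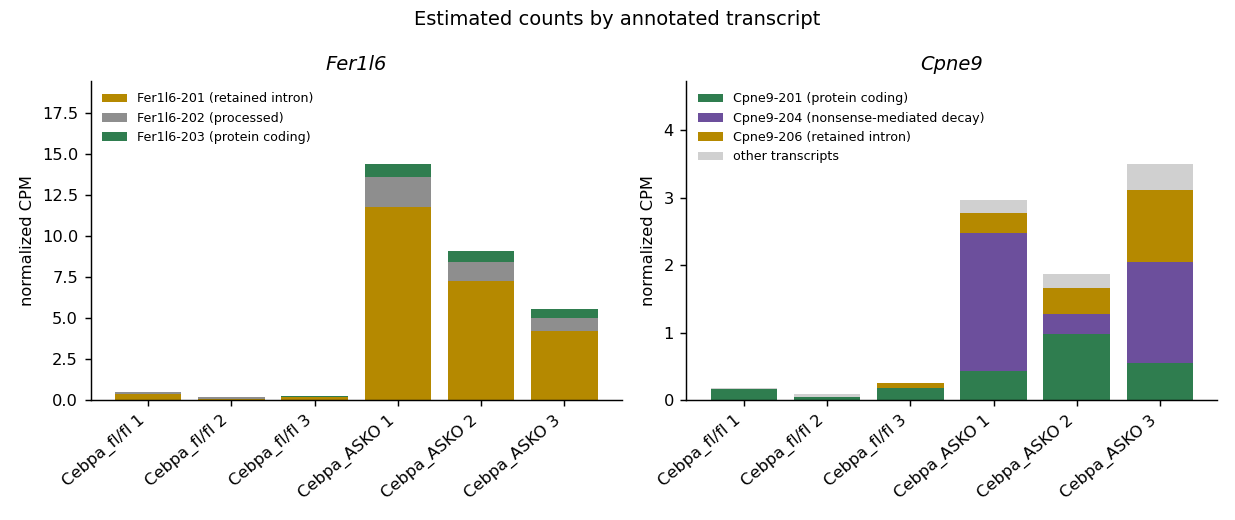
Normalized CPM of *Fer1l6* (left) and *Cpne9* (right) in each library, on linear axes that start at 0, divided by annotated transcript with the annotation's type in the legend. For *Fer1l6* the retained-intron transcript fills most of every Cebpa_ASKO bar, and for *Cpne9* the transcript annotated for nonsense-mediated decay is seen in the 3 Cebpa_ASKO bars and in no control bar.

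*Prr32* (ENSMUSG00000037086.3, chrX:45090904-45092791, plus strand) has 2 exons and 1 annotated transcript of 1110 bases, so all of its counts are for the coding RNA. It had 0.643, 1.27 and 0.422 CPM in Cebpa_fl/fl, from 29, 60 and 20 counts. In Cebpa_ASKO it had 19.3, 11.6 and 2.64 CPM, from 612, 455 and 118 counts. It was the most uneven of the 4 genes among Cebpa_ASKO mice, and replicate 3 lay only 2.08-fold above the highest control. The means were 0.777 ± 0.438 and 11.2 ± 8.35 CPM, a ratio of 14.4 and a log2 fold change of 3.84 (SE 0.79). Leaving out each library in turn gave log2 fold changes between 3.18 and 4.36.

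*1110002E22Rik* (ENSMUSG00000090066.2, chr3:138065052-138081506, plus strand) was the best detected of the 4 genes in control iWAT by counts. It had 1.93, 2.13 and 1.84 CPM in Cebpa_fl/fl, from 87, 101 and 87 counts, and 7.96, 13.6 and 5.99 CPM in Cebpa_ASKO, from 252, 536 and 268 counts. The controls were almost alike, and Cebpa_ASKO replicate 2 was the highest. The means were 1.97 ± 0.151 and 9.19 ± 3.96 CPM, a ratio of 4.67 and a log2 fold change of 2.22 (SE 0.32), the smallest of the 4. Its long coding transcript of 9741 bases in 2 exons held between 95.2% and 100% of the counts in every library. *Gm5105*, on the minus strand, overlaps the beginning of the gene and had 0 to 3 counts in each library. The strand setting of the libraries was not given in the sources used here, so reads in the overlap cannot be assigned by strand.

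Per unit of transcript length, in the length-normalized unit TPM, *Prr32* was the highest of the 4 genes in both genotypes. In Cebpa_fl/fl the order of mean levels was *Prr32* (1.01 ± 0.617 TPM), *1110002E22Rik* (0.361 ± 0.187 TPM), *Fer1l6* (0.220 ± 0.130 TPM) and *Cpne9* (0.0759 ± 0.0365 TPM), and the libraries of no neighbouring pair were separated. In Cebpa_ASKO the order was *Prr32* (14.4 ± 9.92 TPM), *Fer1l6* (6.63 ± 2.47 TPM), *Cpne9* (1.76 ± 0.610 TPM) and *1110002E22Rik* (1.24 ± 0.521 TPM). Here only *Fer1l6* and *Cpne9* did not overlap as neighbours. By these means *1110002E22Rik* stood next to the top in controls and last in Cebpa_ASKO, though its libraries overlapped those of its neighbours in both orders. In Cebpa_fl/fl replicate 1, 4.14 estimated counts on its other transcript, of 465 bases, made 62.7% of its TPM. Its coding transcript alone had a mean of 0.241 TPM in controls, close to that of *Fer1l6*. For scale, *Cebpa* was at 228 ± 21.3 TPM in the controls.

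The 4 genes did not follow 1 order among the Cebpa_ASKO mice. *Prr32* and *Fer1l6* were highest in replicate 1 and lowest in replicate 3, *Cpne9* was highest in replicate 3 and lowest in replicate 2, and *1110002E22Rik* was highest in replicate 2 and lowest in replicate 3. The skeletal muscle markers had the same order of mice as *1110002E22Rik*. They form a list of 20 genes of the contractile apparatus and its calcium and energy supply. They summed to 787, 1057 and 831 CPM in controls, and to 3785, 6983 and 2492 CPM in Cebpa_ASKO. Of these 20 genes 16 were called higher and none lower, where 1.39% of all genes tested were called higher. Their median log2 fold change was 2.14, beside 0.02 over all genes tested. None of the 20 was at 0, and 19 separated the genotypes, as 12.9% of all genes tested did in this direction.

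Set against that sum, the levels of *1110002E22Rik* overlapped between the genotypes. For each 1000 CPM of the muscle list it had 2.45, 2.02 and 2.21 CPM in controls and 2.10, 1.95 and 2.40 CPM in Cebpa_ASKO, and the means of 2.23 ± 0.219 and 2.15 ± 0.230 differed by less than either SD. The means of the other genes were higher in Cebpa_ASKO on this scale. *Fer1l6* had means of 0.338 ± 0.251 and 2.44 ± 1.26 CPM for each 1000 CPM of the list, without overlap. *Cpne9* had 0.203 ± 0.114 and 0.821 ± 0.570, and *Prr32* had 0.841 ± 0.346 and 2.61 ± 2.18, both with overlapping libraries. With the summed muscle level as a covariate, the log2 fold change was 0.43 (SE 0.41) for *1110002E22Rik*, 1.57 (SE 2.18) for *Prr32*, 5.10 (SE 1.51) for *Fer1l6* and 5.64 (SE 0.87) for *Cpne9*. The covariate does not overlap between the genotypes, no gene of 16080 was called in that fit (edgeR, 885 at an unadjusted p below 0.05), and the part of muscle RNA in the rise of any of these genes was not tested.

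**Figure D3:**
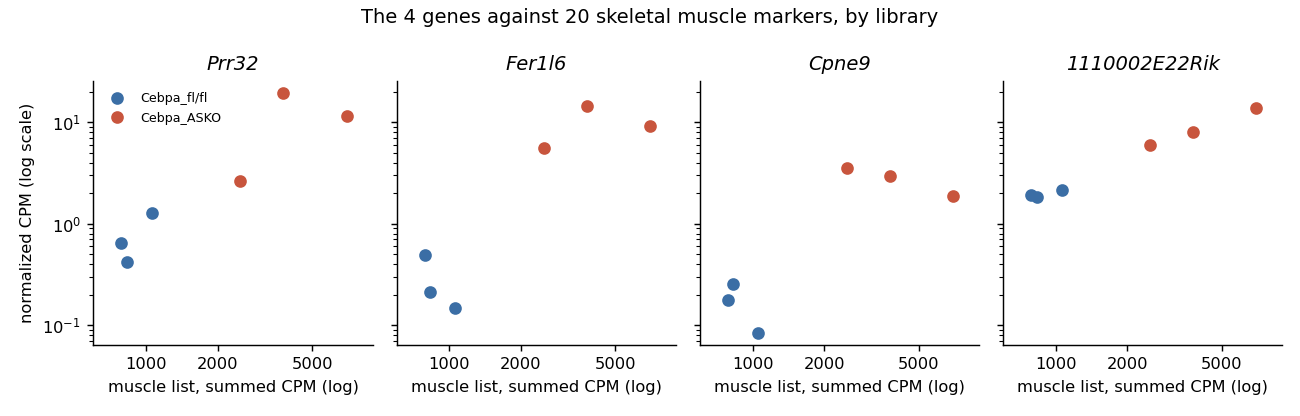
Each gene's normalized CPM against the summed CPM of 20 skeletal muscle markers, both on log axes, with 1 point per library, Cebpa_fl/fl in blue and Cebpa_ASKO in red. *1110002E22Rik* climbs with the muscle sum within Cebpa_ASKO as well as between the genotypes, whereas the red points of *Cpne9* fall from left to right.

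Fewer markers of the other cell types were called by edgeR, which called 5.22% of all genes tested. Over all 16080 genes tested, 3178 had an unadjusted p below 0.05, and DESeq2 called 1817 of the 17152 genes with an adjusted p. Of the tested markers of smooth muscle and pericytes (9), keratinocytes and skin (6), fibroblasts and progenitors (12), macrophages (10) and lymphocytes (9), edgeR called 0, with 5, 2, 0, 0 and 6 at an unadjusted p below 0.05 and 2, 0, 0, 0 and 3 called by DESeq2. The smooth muscle and pericyte list summed to 750 to 926 CPM in controls and 957 to 1149 CPM in Cebpa_ASKO, without overlap. Of its 9 tested markers 7 had a positive log2 fold change, with a median of 0.37. Mammary epithelium had 1 of 14 called by edgeR, *Esr1*, which was lower, with 9 at an unadjusted p below 0.05. DESeq2 called 5 of its markers higher and 1 lower, and 12 of the 14 had a positive log2 fold change. The higher ones, named after their values were seen, were *Krt8*, *Krt18*, *Cdh1*, *Elf5* and *Ltf*. The mammary list summed to 1048 to 2339 CPM in controls and to 2685 to 3055 CPM in Cebpa_ASKO, without overlap. Endothelial markers had 1 of 10 called, *Emcn*, which was lower (3 at an unadjusted p below 0.05, 2 called lower by DESeq2), with sums of 436 to 534 and 352 to 453 CPM. Among Schwann cell and nerve markers 1 of 10 was called, *S100b*, which was higher (2 at an unadjusted p below 0.05, 2 called higher by DESeq2), with sums of 329 to 405 and 468 to 596 CPM. These sums include *S100b* itself, at 5.68 to 15.6 CPM in controls and 44.6 to 128 CPM in Cebpa_ASKO. Its log2 fold change was 3.18, beside a median of 0.41 over the list. Lymphocyte markers had a median log2 fold change of −2.17, with sums of 103 to 609 and 106 to 151 CPM. None of the listed markers was at 0 in all libraries, and the part of these cells in the rise of the 4 genes was not tested.

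The relatives of *Fer1l6* and *Cpne9* were then examined. Of the other 5 ferlins 4 could be tested and 0 were called (1 at an unadjusted p below 0.05, 0 called by DESeq2). *Dysf*, dysferlin of muscle membrane repair, had 16.6 ± 4.95 CPM in controls and 26.8 ± 3.85 CPM in Cebpa_ASKO, a log2 fold change of 0.69 (SE 0.22, edgeR adjusted p = 0.154). *Fer1l4* had 7.81 ± 5.14 and 16.8 ± 3.30 CPM, a log2 fold change of 1.10 (SE 0.52, edgeR adjusted p = 0.305). Neither pair of groups overlapped. *Myof*, myoferlin, had 67.8 to 88.6 CPM in controls and 79.1 to 115 CPM in Cebpa_ASKO, *Otof*, otoferlin, had 0.816 ± 0.610 and 0.648 ± 0.0966 CPM, and both overlapped between genotypes (log2 fold changes of 0.38 and −0.34). *Fer1l5* had 0 or 1 count in each library. The summed level of the ferlins other than *Fer1l6* was 101.5 ± 8.40 CPM in controls and 143 ± 19.9 CPM in Cebpa_ASKO.

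Of the other 8 copines 6 could be tested and 0 were called by edgeR (2 at an unadjusted p below 0.05), while DESeq2 called *Cpne2*. *Cpne2* had 40.4 ± 9.44 CPM in controls and 25.7 ± 0.827 CPM in Cebpa_ASKO, a log2 fold change of −0.65 (SE 0.16, edgeR adjusted p = 0.080), without overlap. *Cpne1* likewise did not overlap, with 60.0 ± 2.28 and 51.9 ± 0.646 CPM (log2 fold change −0.21, edgeR adjusted p = 0.166). *Cpne3*, *Cpne8*, *Cpne5* and *Cpne7* overlapped, with log2 fold changes of −0.13, −0.12, 0.34 and −0.19. *Cpne4* had 0 to 4 counts in each library and *Cpne6* had none.

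**Figure D4:**
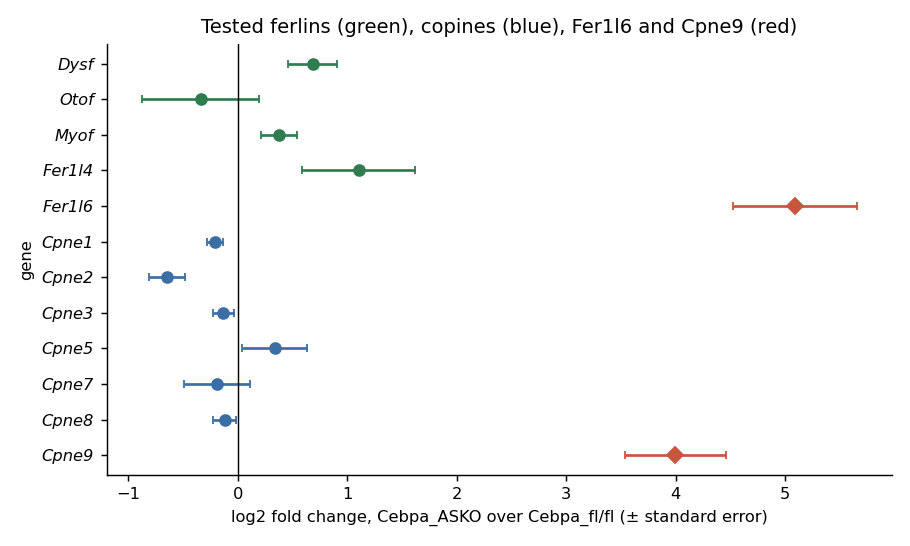
Log2 fold change (Cebpa_ASKO over Cebpa_fl/fl) with its standard error for every tested ferlin (green) and copine (blue), with *Fer1l6* and *Cpne9*, which were selected on this same contrast, as red diamonds. The relatives lie between −0.65 and 1.10, and none of them was called by edgeR.

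Among other membrane genes with C2 domains, such as synaptotagmins and extended synaptotagmins, 32 of 40 could be tested. Of these edgeR called 0 higher and 3 lower, or 9.4%, beside 5.22% over all genes tested. There were 11 at an unadjusted p below 0.05, beside 3178 of all 16080 genes tested, and the median log2 fold change was 0.11. Those called were *Syt14* (−2.41), *Syt12* (−2.06) and *Esyt1* (−0.78), the last of which tethers the endoplasmic reticulum to the plasma membrane. DESeq2 called 3 lower and also 3 higher, which, named after their values were seen, were *Syt8*, *Syt17* and *Esyt3*, with edgeR log2 fold changes of 2.01, 1.34 and 0.92. Of 28 membrane repair partners, which include annexins, caveolins and *Trim72*, edgeR called 0 higher and 1 lower, or 3.57%. There were 7 at an unadjusted p below 0.05, and the median was 0.07. The one called was *Cav1*, the main coat protein of caveolae, which are abundant in adipocytes, with a log2 fold change of −1.12. Over all 17152 genes with an adjusted p, DESeq2 called 677 higher and 1140 lower. Of the membrane repair partners it called 4 higher and 2 lower, so the balance of directions turned. Named after their values were seen, the higher ones were *Trim72*, *Anxa4*, *Anxa2* and *Anxa7*, with edgeR log2 fold changes of 1.80, 0.45, 0.42 and 0.29, and beside *Cav1* the lower one was *Ehd3* (−0.83). The call for *Cav1* was lost without Cebpa_ASKO replicate 2, and *Syt12* alone of the C2 domain genes was called without Cebpa_ASKO replicate 1.

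The genes that lie next to the 4 genes were examined in the same fit. Of the 24 nearest protein-coding genes, 3 on each side of each gene, 19 could be tested and 0 were called by edgeR (2 at an unadjusted p below 0.05), with a median log2 fold change of 0.14. Of these 19, 7 did not overlap between the genotypes, beside 26.1% of all genes tested. *Mtmr14* ends 915 bases before *Cpne9* and had a log2 fold change of −0.19 (SE 0.09, edgeR adjusted p = 0.319), and *Brpf1* starts 1510 bases after it and had 0.18 (SE 0.08, edgeR adjusted p = 0.269). *Mttp*, which loads lipid onto lipoproteins, lies 8348 bases from *1110002E22Rik* and had 8.68 ± 0.103 and 8.31 ± 1.03 CPM. *Tmem65*, the next gene after *Fer1l6* at a distance of 117177 bases, had 44.2 ± 2.60 CPM in controls and 65.3 ± 10.0 CPM in Cebpa_ASKO without overlap, a log2 fold change of 0.56 (SE 0.12, edgeR adjusted p = 0.053), and DESeq2 called it. *Fam91a1*, 52308 bases before *Fer1l6*, had 78.1 ± 4.61 and 79.2 ± 2.64 CPM. The highest log2 fold change among the neighbours was 1.14 (SE 0.49, edgeR adjusted p = 0.264), for *Klhl38*, also before *Fer1l6*. It had 0.404 ± 0.231 and 0.893 ± 0.158 CPM, without overlap. Near *Prr32*, *Dcaf12l1* had a log2 fold change of 0.76 (SE 0.29, edgeR adjusted p = 0.210), and *Tex13c1* and *Actrt1* had no counts.

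**Figure D5:**
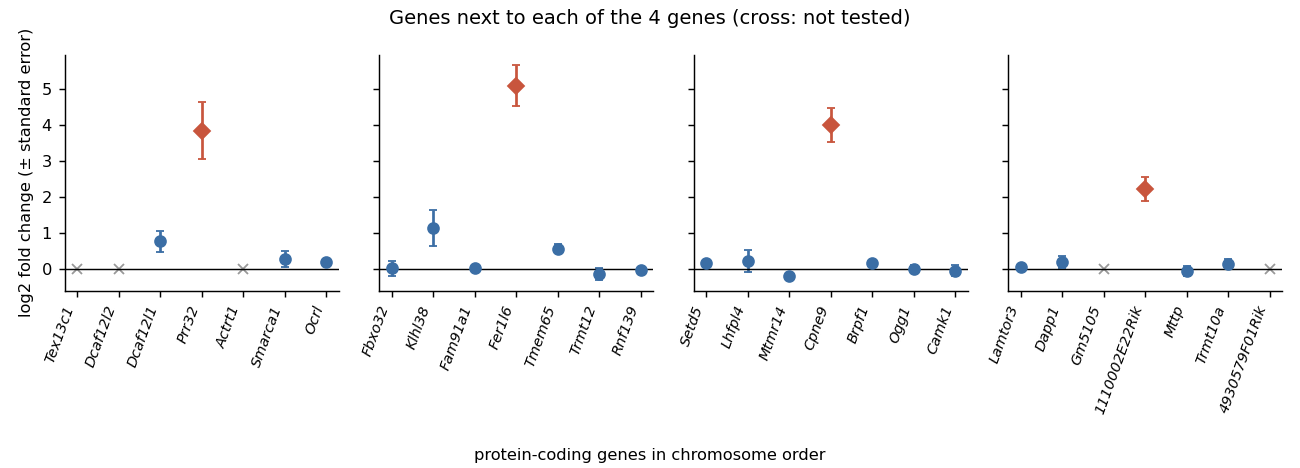
Log2 fold change (Cebpa_ASKO over Cebpa_fl/fl) with its standard error for each of the 4 genes (red diamond) and the 3 nearest protein-coding genes on each side (blue), in chromosome order and not to scale of distance, where a cross at 0 marks a gene with too few counts to test. The neighbours lie between −0.19 and 1.14.

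The genes whose profiles over the 6 libraries were most like each of the 4 genes were found from log2(CPM + 0.5) values centred on each gene's mean, by the root mean square difference. They share the rise through this choice and are given as a description. Nearest to *1110002E22Rik* were *Sypl2* and *Cacna1s*, of the triad and the voltage-gated calcium channel of skeletal muscle, and *Tmem233*, each at 0.13. *Cacna1s* had 4.06, 4.29 and 4.71 CPM in controls and 14.9, 31.1 and 11.4 CPM in Cebpa_ASKO, the same order of mice as *1110002E22Rik* in Cebpa_ASKO. Nearest to *Fer1l6* were *S100b*, a calcium-binding protein (0.40), *Camk2b*, a calcium- and calmodulin-dependent kinase (0.40), and *Angpt4*, an angiopoietin (0.47). *Angpt4* was also the nearest to *Prr32* (0.42), ahead of *Comp*, a cartilage matrix protein (0.50), and *Fam20c*, a kinase of secreted proteins (0.55). *Angpt4* had 0.555, 0.422 and 0.211 CPM in controls and 11.1, 12.9 and 2.93 CPM in Cebpa_ASKO, and like *Prr32* it was much lower in replicate 3 than in the other Cebpa_ASKO mice. Nearest to *Cpne9* were the pseudogene *Morf4l1-ps1* (0.27), whose reads may be shared with its parent gene, *Rnf152*, a ubiquitin ligase (0.34), and *Kcna2*, a potassium channel (0.38). The 4 genes were farther from each other than from these, with differences between 0.60 for *Cpne9* and *1110002E22Rik* and 1.05 for *Prr32* and *Cpne9*.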

How the data were processed

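Per the labels, poly-A RNA of whole iWAT was sequenced after TruSeq library construction, and all 6 libraries bear 1 batch number. The authors deposited estimated counts and TPM for each transcript (kallisto 0.44.0 and GRCm38.p6 in the submitters' processing notes), and TPM summed for each gene symbol. Transcripts were matched to GENCODE M21, where 116816 of 118489 matched. A further 1100 without a match were added to a gene where length and counts equalled those of its annotated transcripts in all libraries, which takes them as copies of those transcripts without a comparison of sequence. Estimated counts were summed per symbol and rounded. Replicates differed well beyond sampling noise, with chi-square values of 26.0 to 224 for each degree of freedom.

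The test was edgeR 4.0.16 (R 4.3.3), quasi-likelihood with TMM, filterByExpr at its defaults, and Benjamini-Hochberg adjustment of 16080 p-values with a threshold of 0.05. DESeq2 1.42.0, limma 3.58.1 on log2(TPM + 1) and log2(TPM + 0.1), other scalings and filters, a replicate block, a muscle covariate and omission of each library were alternatives. With 3 against 3 libraries an exact permutation test cannot go below 0.1. Genes named are the 4 genes, *Cebpa*, all ferlins and copines, the 3 nearest coding genes on each side, the 3 most alike (predicted Gm and Rik genes left out) and the called members of other lists, up to 4. The 4 genes and all lists were chosen with earlier results of these data known.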

Additional observations from a re-analysis of the deposited data

How the results depend on the processing

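The log2 fold changes of all 4 genes were positive under every alternative that gave a value, though with the muscle covariate those of *Prr32* (1.57, SE 2.18) and *1110002E22Rik* (0.43, SE 0.41) were no larger than about their standard errors. Log2 fold changes without each library in turn ran from 3.18 to 4.36 for *Prr32*, 4.69 to 5.73 for *Fer1l6*, 3.66 to 4.39 for *Cpne9* and 1.81 to 2.44 for *1110002E22Rik*. On log2(TPM + 1), with or without a filter, they were 2.68 for *Prr32*, 2.60 for *Fer1l6* and 1.34 for *Cpne9*, and 0.70 without a filter for *1110002E22Rik*. On log2(TPM + 0.1) *Fer1l6* had 4.41 and *Cpne9* 3.37, since a pseudocount shrinks low genes. With the muscle covariate *Cpne9* had 5.64 (SE 0.87). No value was had for *1110002E22Rik* in filtered TPM, or for *Fer1l6* and *Cpne9* where 10 counts were required in each library, as they did not pass.

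Genes called numbered 840 (224 higher, 616 lower), 1817 by DESeq2 (677 higher, 1140 lower), 359 by limma without a filter and 0 with the muscle covariate. Leaving out a library gave 314 to 918, with 314 without Cebpa_ASKO replicate 1, 368 without Cebpa_ASKO replicate 2, 513 without Cebpa_fl/fl replicate 1 and 500 without Cebpa_fl/fl replicate 3. The replicate block gave 369 calls (74 higher, 295 lower), 0 of the membrane repair partners and 2 of the clone-named genes. Samples with the same number correlated at 0.061, 0.029 and −0.176, and samples with different numbers at −0.164 to 0.133. With 3 mice in each genotype, these values do not decide whether the numbers pair them. Under the block *Prr32* had 3.59, *Fer1l6* 5.12, *Cpne9* 4.05 and *1110002E22Rik* 2.14.

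DESeq2 called 1 other copine, 6 C2 domain genes (3 higher, 3 lower), 6 membrane repair partners (4 higher, 2 lower), 1 neighbour and 26 clone-named genes (9 higher, 17 lower). Scaling by total counts and the 3 limma fits called 1 neighbour, *Tmem65*. Limma without a filter called 1 C2 domain gene and 5 clone-named genes, all genes with at least 1 count gave 2 membrane repair partners, and the muscle covariate gave 0 in each list. Leaving out each library gave 0 to 0 other ferlins, 0 to 1 other copines, 1 to 4 C2 domain genes, 0 to 3 membrane repair partners, 0 to 1 neighbours and 3 to 10 clone-named genes. The cause of these changes was not tested. By TPM in place of counts, the coding share was 2.48% for *Fer1l6* in Cebpa_ASKO, and 79.1% in Cebpa_fl/fl and 95.6% in Cebpa_ASKO for *1110002E22Rik*, because TPM gives short transcripts more weight. Without each library, coding shares ran from 2.95% to 14.1% and 6.55% to 8.93% for *Fer1l6*, 61.8% to 80.6% and 14.8% to 33.8% for *Cpne9*, and 97.6% to 100% and 99.8% to 100% for *1110002E22Rik* (Cebpa_fl/fl, then Cebpa_ASKO). Summing only annotated transcripts, an alternative added after the data were seen, gave 840 genes called and left the log2 fold changes of the 4 genes within the spread between replicates. The low control counts of *Fer1l6* and *Cpne9*, 4 to 22 a library, limit the precision of their fold changes.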

Other observations

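Genes that, like *1110002E22Rik*, still carry the name of a cDNA clone gave 301 tested genes of 677 listed. Besides *1110002E22Rik*, 1 was called higher and 8 lower (edgeR, adjusted p below 0.05), or 3% of these 300 beside 5.22% over all genes tested. The median log2 fold change of the 300 was 0.03, close to that of all genes. The one that was higher, *6430571L13Rik*, had 1.51, 1.10 and 1.48 CPM in Cebpa_fl/fl and 5.97, 8.01 and 2.64 CPM in Cebpa_ASKO, a log2 fold change of 2.02 (SE 0.42). Its adjusted p was 0.045 (edgeR) and ran from 7.9e-05 to 0.999 over 17 alternatives, of which 8 called it, among them DESeq2. The call was lost in 5 of the 6 fits that left out a library, all but that without Cebpa_ASKO replicate 3, and under the replicate block. Over all clone-named genes other than *1110002E22Rik*, DESeq2 called 9 higher and 17 lower. The mice of *6430571L13Rik* stood in the same order as those of *1110002E22Rik* in Cebpa_ASKO. The 3 with the strongest falls were *2810459M11Rik* (log2 fold change −3.21), *4931428L18Rik* (−2.75) and *9330159F19Rik* (−2.37). *2810459M11Rik* had 3.95, 8.47 and 7.03 CPM in Cebpa_fl/fl and 0.695, 0.610 and 0.782 CPM in Cebpa_ASKO.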
